A study of Mus musculus with 6 samples.

Results

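The transcript of interferon gamma (Ifng) and the transcripts of the 4 chains of the receptors for interleukin 12 (Il12rb1 and Il12rb2) and interleukin 18 (Il18r1 and Il18rap) were followed in mouse natural killer (NK) cells exposed to a fatty acid. These 5 genes were taken by symbol from the deposited table, which lists 559 genes, and all 5 were found in it. The NK cells were purified from spleens labelled C57BL/6, a standard inbred mouse strain, and were kept for 36 h either without addition (control, 3 libraries) or with 0.2 mM oleic acid, a monounsaturated fatty acid (OA, 3 libraries). No genetic change is named for either group, the age and sex of the mice and any carrier for the fatty acid are not given in the sources used here, and the labels say that the treatment was carried out once. They do not say whether the 3 libraries of a group came from separate mice or cultures, so each p-value measures only the spread between these libraries, which may be technical. The study asked how the transcripts of NK cells differ after exposure to OA.

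Interferon gamma is the cytokine by which NK cells activate macrophages and raise antigen presentation in neighbouring cells. Its gene is transcribed strongly when NK cells receive interleukin 12 and interleukin 18 together. Interleukin 12 binds a pair of chains, IL-12R beta 1 (Il12rb1), which works with the kinase Tyk2 and also serves the interleukin 23 receptor, and IL-12R beta 2 (Il12rb2), which works with Jak2 and recruits the transcription factor Stat4. Interleukin 18 binds the IL-18 receptor chain encoded by Il18r1, and the accessory chain encoded by Il18rap joins it to signal through Myd88 to NF-kB and p38.

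The genes lie on 4 chromosomes of the mouse build GRCm38, by RefSeq. Ifng (gene identifier 15978) spans chr10:118441046-118445894 on the plus strand, with 4 exons in the principal transcript of GENCODE. Il12rb1 (16161) lies at chr8:70808360-70823542 and Il12rb2 (16162) at chr6:67285986-67376293, on the plus and the minus strand. Il18r1 (16182, chr1:40465552-40500854) and Il18rap (16174, chr1:40515362-40551707) are neighbours on the plus strand of chromosome 1, 14.5 kb apart, within the cluster of interleukin 1 receptor genes. The RefSeq span of Il12rb2 overlaps that of Serbp1 by 3317 bases, whereas its GENCODE span ends 2015 bases short of Serbp1. Whether the counting used strand is not given in the sources used here, so reads from the shared stretch could not be assigned to either gene.

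The promoters of 4 of the 5 members are in the RefSeq sequence table (GRCm38.p6), as 300 bases that run from 250 bases before to 50 bases after an annotated start. They are shown because the transcripts of these genes were lower together, as were those of 48.7% of the listed genes. Whether these genes share a regulator was not tested. On both strands of these windows, 5 short motifs of factors at work in lymphocytes or of basal transcription were searched. The motifs were TTCNNNGAA (STAT dimers, the gamma-activated site), ACACCT (T-box core), TGTGGT (RUNX core), TGAGTCA (AP-1) and TATAAA (known as the TATA box), with no overlap among the matches. Capitals mark the matches. Il18r1 has 3 annotated starts, and the window shown is that of the start farthest downstream, chosen because it held STAT matches.
Ifng, chr10:118440796-118441095, plus strand: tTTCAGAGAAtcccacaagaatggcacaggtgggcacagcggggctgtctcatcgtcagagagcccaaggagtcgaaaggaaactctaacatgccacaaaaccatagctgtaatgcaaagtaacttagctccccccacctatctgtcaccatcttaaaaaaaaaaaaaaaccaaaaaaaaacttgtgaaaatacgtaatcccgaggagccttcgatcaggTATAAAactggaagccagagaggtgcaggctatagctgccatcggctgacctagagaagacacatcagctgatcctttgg
Il12rb2, chr6:67376139-67376438, minus strand: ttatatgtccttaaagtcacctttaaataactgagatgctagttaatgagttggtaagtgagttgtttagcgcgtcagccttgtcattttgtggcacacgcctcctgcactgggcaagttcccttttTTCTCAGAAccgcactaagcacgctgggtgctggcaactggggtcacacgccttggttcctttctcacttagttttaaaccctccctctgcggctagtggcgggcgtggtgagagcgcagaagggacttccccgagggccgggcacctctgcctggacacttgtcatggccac
Il18r1, chr1:40465756-40466055, plus strand: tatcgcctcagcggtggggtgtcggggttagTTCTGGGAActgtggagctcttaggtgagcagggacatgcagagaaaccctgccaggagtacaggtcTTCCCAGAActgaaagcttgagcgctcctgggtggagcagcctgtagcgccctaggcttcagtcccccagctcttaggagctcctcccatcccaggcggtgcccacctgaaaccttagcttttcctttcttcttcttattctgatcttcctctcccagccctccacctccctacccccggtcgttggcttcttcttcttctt
Il18rap, chr1:40515112-40515411, plus strand: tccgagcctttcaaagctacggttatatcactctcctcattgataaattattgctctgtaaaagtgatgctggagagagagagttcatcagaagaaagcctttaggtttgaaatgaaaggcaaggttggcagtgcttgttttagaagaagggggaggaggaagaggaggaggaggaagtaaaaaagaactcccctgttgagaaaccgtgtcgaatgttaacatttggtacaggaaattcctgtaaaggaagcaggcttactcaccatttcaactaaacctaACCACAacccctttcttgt

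The Ifng window held the STAT pattern as TTCAGAGAA from position -249 and a TATA box from position -30, counted from the start. The Il12rb2 window held the STAT pattern as TTCTCAGAA from position -123, and the Il18r1 window shown held it at positions -219 (TTCTGGGAA) and -152 (TTCCCAGAA). The other 2 Il18r1 windows held none, and 1 of them held a RUNX core 22 bases past its start. The Il18rap window held a RUNX core, on the minus strand, and no STAT pattern. The T-box and AP-1 letters were in none of the 6 windows of these 4 genes, which says only that these letters are not in these windows. Of all 32851 promoter windows in the table, 8.30% held the STAT pattern, 13.6% the TATA box, 16.8% the RUNX core, 13.7% the T-box core and 5.20% the AP-1 pattern. Because the Il18r1 window shown was picked for its STAT matches, the windows shown cannot be set against the 8.30%. A match is a stretch of letters, and binding was not measured.

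Transcript levels were given as TPM, the portion of a library's transcripts that a gene accounts for after correction for transcript length, so levels can be set beside each other between genes as well as between libraries. Ifng was the most abundant of the 5 members. Control replicates 1, 2 and 3 held 1433, 1335 and 1783 TPM of it, and OA replicates 1, 2 and 3 held 1043, 911 and 683 TPM. Every OA library was below every control library, control replicate 3 was the highest and OA replicate 3 the lowest. The mean was 1517 ± 235 TPM in control and 879 ± 182 TPM in OA (SD, n = 3 in each group), a level 42.1% lower. In limma, a linear model fitted here across all 559 genes on log2(TPM + 1), the difference of OA minus control was -0.80 (SE 0.195, Benjamini-Hochberg adjusted p = 0.0281).

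The interleukin 12 receptor chains were similar to each other in level without OA. Il12rb1, the chain shared with the interleukin 23 receptor, stood at 173, 182 and 199 TPM in control and at 152, 150.3 and 133 TPM in OA. Il12rb2, the chain that recruits Stat4, stood at 167, 169 and 196 TPM in control and at 139, 131 and 99.7 TPM in OA. In both genes the groups did not overlap, and replicate 3 was again the highest control and the lowest OA library. Il12rb1 fell from 185 ± 12.9 to 145 ± 10.3 TPM (log2 difference -0.34, SE 0.0826, limma adjusted p = 0.0278). Il12rb2 fell from 177 ± 15.9 to 123 ± 20.7 TPM (log2 difference -0.53, SE 0.147, limma adjusted p = 0.0312).

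The interleukin 18 receptor chains stood lower in level. Il18rap, the accessory chain, had 94.1, 99.9 and 107 TPM in control and 85.3, 86.4 and 69.3 TPM in OA. Il18r1, the chain that binds interleukin 18, had 81.0, 83.4 and 86.7 TPM in control and 70.8, 65.9 and 52.0 TPM in OA. Neither gene's groups overlapped, although the gap between the lowest control and the highest OA library was only 7.70 TPM for Il18rap and 10.2 TPM for Il18r1. Il18rap fell from 100.2 ± 6.30 to 80.3 ± 9.58 TPM (log2 difference -0.32, SE 0.107, limma adjusted p = 0.0414). Il18r1 fell from 83.7 ± 2.89 to 62.9 ± 9.77 TPM (log2 difference -0.42, SE 0.124, limma adjusted p = 0.0336).

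**Figure D1:**
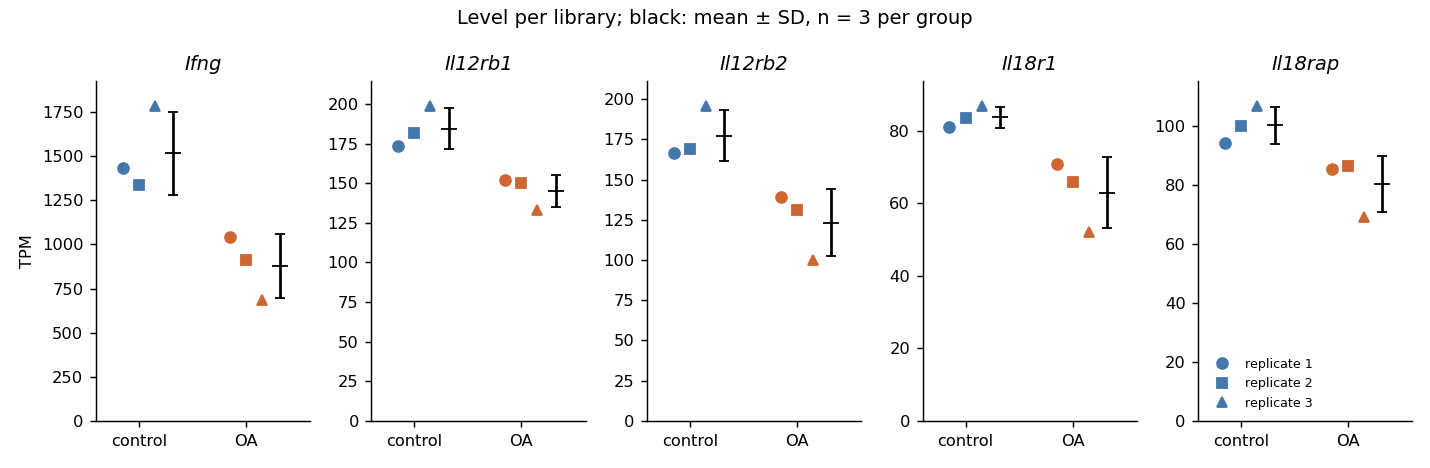
TPM (vertical axes, from 0) of Ifng, Il12rb1, Il12rb2, Il18r1 and Il18rap in each control and OA library; symbols mark the replicate and black bars the mean ± SD of 3 libraries. In each gene the OA libraries lie below the control libraries, with replicate 3 at the top of control and at the bottom of OA.

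In order of level in control, Ifng came before Il12rb1, Il12rb2, Il18rap and Il18r1, and the order of the means was the same in OA. Ifng stood above each receptor gene in all 6 libraries, and 12 of the 559 listed genes had a higher control mean. The levels of Il12rb1 and Il12rb2 overlapped between libraries in both groups. Those of Il18rap and Il18r1 did not overlap in control, where they differed by more than their SDs, but in OA 69.3 TPM of Il18rap in replicate 3 was below 70.8 TPM of Il18r1 in replicate 1. Relative spread between replicates was smallest for Il18r1 in control (a coefficient of variation of 3.45%) and largest for Ifng in OA (20.7%).

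All 5 members were called lower in limma, where 40.1% of the listed genes were called lower, and in all 5 every OA library was below every control library, as in 48.5% of listed genes (93.6% did not overlap in either direction). Every gene of the table had passed the authors' own test (Q under 0.05) on the same 6 libraries, so neither count is independent evidence that these genes differ. The limma adjusted p were taken over these selected genes only. They can therefore be smaller than over all genes measured, and are not independent evidence either. In the authors' deposited table, Ifng had a log2 fold change of -0.78 (Q = 0.0101) and Il12rb1 one of -0.34 with the smallest Q of the members (3.50e-05). The authors' deposited table gave Il12rb2 -0.53 (Q = 0.0126), Il18r1 -0.40 (Q = 0.00109) and Il18rap -0.33 (Q = 0.00153), and 48.7% of its genes were lower. Among the 272 listed genes with a lower level in OA, the median log2 difference was -0.29. Ranked by the size of the fall, Ifng was in position 11, Il12rb2 in 32, Il18r1 in 67, Il12rb1 in 101 and Il18rap in 117.

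**Figure D2:**
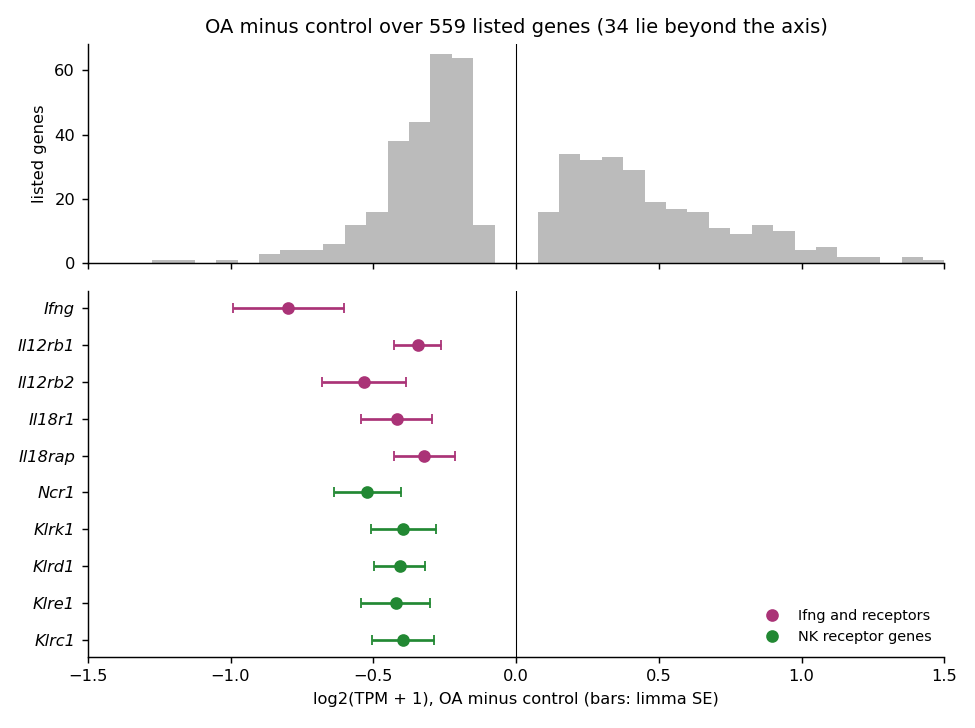
Top, histogram of the log2 difference of OA minus control on the log2(TPM + 1) scale over the 559 listed genes; bottom, the same difference with its limma SE for the 5 members and for 5 NK receptor genes. Ifng is at -0.80 and the 4 receptor genes lie between -0.53 and -0.32, the range in which the NK receptor genes also lie.

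The calls depended on single libraries and on the scaling. With libraries scaled to equal medians 3 members passed in limma (14.7% of listed genes called lower), and Il18r1 and Il18rap did not. All 5 passed with a pseudocount of 0.5 (40.3% called lower), without genes under a mean of 1 TPM (44.7%) and with an intensity trend and robust prior (46.3%). In limma 5 members passed without OA replicate 3, where 24.7% of listed genes were called lower, and 4 passed without OA replicate 1 (33.5% called lower), where Il18rap had an adjusted p = 0.0519. No member passed without control replicate 1 (adjusted p from 0.0662 to 0.0786, with all 5 at an unadjusted p under 0.05) or without OA replicate 2 (0.0793 to 0.0818, also all 5 unadjusted), and in both fits limma called 0% of listed genes lower. Without control replicate 2 (2.33% called lower) and without control replicate 3 (5.37%) limma called 0 members too, and 3 had an unadjusted p under 0.05 in each. The adjusted p then ran from 0.0514 for Ifng to 0.0897 for Il18rap and from 0.0557 for Il12rb1 to 0.108 for Il18rap. The log2 difference of Ifng lay between -0.93 and -0.63 over these 6 fits.

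**Figure D3:**
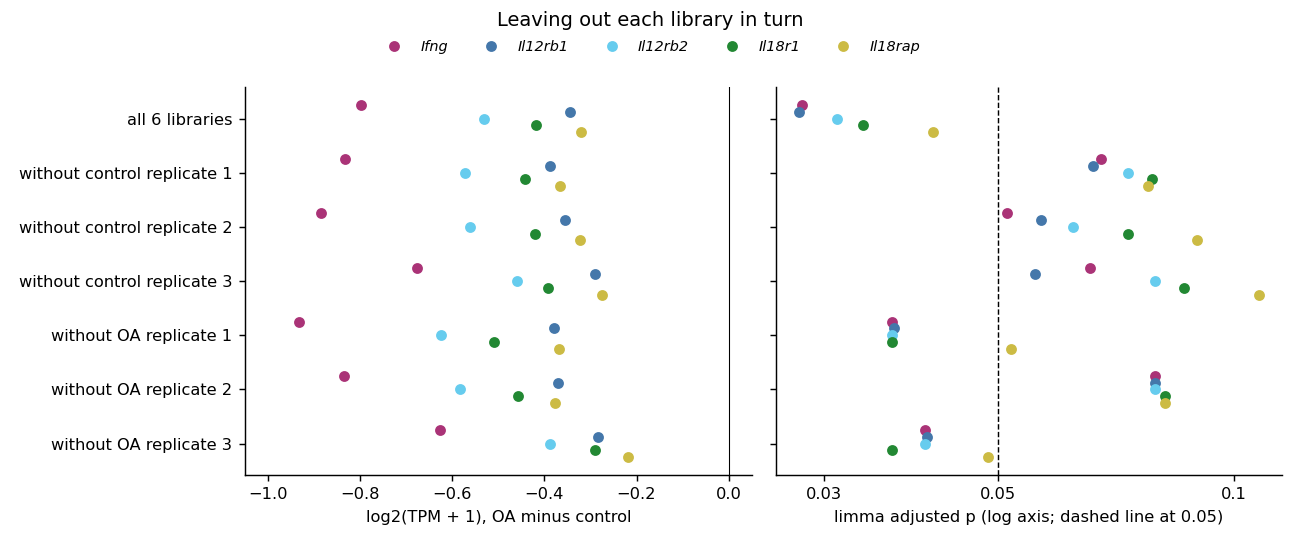
Log2 difference of OA minus control (left) and limma adjusted p on a log axis (right) for the 5 members with all 6 libraries and with each library left out in turn. The differences stay below 0 in each fit, which non-overlapping groups fix in advance, while the adjusted p of the members lies above the dashed line of 0.05 in 4 of the 6 fits, and that of Il18rap in 5.

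The size of the differences depended on replicate 3. In all 5 members control replicate 3 was the highest control library and OA replicate 3 the lowest OA library, a pattern held by 42.9% of all listed genes and by 87.5% of those lower in OA. Without replicate 3 of both groups, a fit added after the data were seen, limma called all 5 members, with 34.2% of listed genes called lower. The log2 differences then were -0.50 for Ifng, -0.31 for Il12rb2, -0.26 for Il18r1, -0.23 for Il12rb1 and -0.17 for Il18rap (limma adjusted p from 0.0250 to 0.0426).

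OA replicate 3 also held transcripts of heart muscle. The 11 listed genes of 14 fixed as heart muscle markers summed to between 31.2 and 54.2 TPM in control, to 45.7 and 456 TPM in OA replicates 1 and 2, and to 6198 TPM in OA replicate 3, which is 0.620% of that library's scale. With these 11 genes taken out of the TPM scale, all 5 members passed in limma (42.3% of listed genes called lower) and the log2 difference of Ifng was -0.79. That step only rescales each library by the share of these genes, so it could hardly move the log2 differences. Genes outside the list with a like rise stayed in, such as Ckmt2 (1.10 TPM in OA replicate 1 and 172 TPM in OA replicate 3). Whether the heart muscle content bears on the members was not tested. The marker lists, too, were fixed when earlier results of these data were known. Of 13 genes fixed as NK cell markers 10 were listed, among them Ncr1, Klrk1, Klrd1, Gzmb and Prf1, and their sum was 3586 to 4368 TPM in control and 2312 to 2994 TPM in OA. The granzyme genes Gzmb and Gzma, with control means of 1551 and 861 TPM, made up most of that sum, so it largely follows them. Of 14 T cell markers, whose cells also transcribe Ifng and these receptors, Cd28, Icos and Lck were listed, with sums of 378 to 415 TPM in control and 280.3 to 344 TPM in OA. Cd3e, Cd4, Cd8a and Trac, which are among the 14, were not listed. The 2 listed markers of 7 for innate lymphoid cells, Cxcr6 and Tnfsf10, summed to 427 to 447 TPM in control and 322 to 373 TPM in OA. Nearly all of that was Cxcr6, with a control mean of 420 TPM. Whether NK cells themselves gave these T cell and innate lymphoid cell marker transcripts was not tested. The 2 listed of 8 for basophils and mast cells summed to 202 to 219 TPM in control and 151 to 177 TPM in OA.

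Summed markers of other lineages were higher in OA. The 6 listed B and plasma cell markers of 12 summed to 323 to 403 TPM in control and 503 to 592 TPM in OA, and the 7 listed monocyte, macrophage and dendritic cell markers of 17 to 1423 to 1689 and 1923 to 2042 TPM. Of those 7, limma called 6 higher and 1 lower: Ly6c2, a surface protein gene of inflammatory monocytes that lymphocytes can also express, fell from 139 ± 4.12 to 91.3 ± 15.3 TPM (adjusted p = 0.0260). The 1 listed neutrophil marker of 9, Mmp9, stood at 2 to 3.30 TPM in control and 6.40 to 6.60 TPM in OA. The 2 listed erythroid and platelet markers of 9, Hbb-bt and Ppbp, summed to 574 to 647 TPM in control and 691 to 754 TPM in OA. Most of that was Ppbp, with a control mean of 582 TPM. No listed marker of these blood cell types was at 0 in any library. The part of the cell mixture in the lower levels of Ifng and its receptors was not tested. In bulk RNA such as this, fewer cells of a type and less RNA per cell cannot be told apart.

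Ifng and its receptors were therefore set against NK receptor transcripts in the same libraries, a comparison added after the data were seen. Ncr1, Klrk1, Klrd1, Klre1 and Klrc1, which encode NKp46, NKG2D, CD94, KLRE1 and NKG2A, summed to 682, 665 and 746 TPM in control and to 576, 535 and 453 TPM in OA, or 0.747 of the control mean. Il18r1 was 0.120 ± 0.00472 of this sum in control and 0.120 ± 0.00487 in OA (SD, n = 3 per group). Il12rb1 was 0.264 ± 0.00970 and 0.280 ± 0.0153 of it, Il12rb2 0.254 ± 0.00883 and 0.235 ± 0.0135, and Il18rap 0.144 ± 0.00614 and 0.154 ± 0.00696. For these 4 genes the groups overlapped. Ifng was 2.10, 2.01 and 2.39 times the sum in control and 1.81, 1.70 and 1.51 times in OA, so its groups did not overlap. The reference genes were chosen with values in view, and each was itself lower in OA, with log2 differences from -0.52 to -0.39. Il18r1, at -0.42, lay within that range, and Klrk1, part of the sum, was the gene most like it in pattern. Its near-constant ratio was therefore largely fixed by the choice of reference.

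The difference of Ifng from the NK receptor sum was -0.37 on the log2 scale (exact two-sided permutation test, p = 0.10, the smallest that 3 against 3 allows; 0.333 adjusted over 5 genes). Those of the receptor genes were -0.11 for Il12rb2, 0.0011 for Il18r1, 0.08 for Il12rb1 and 0.10 for Il18rap, with exact permutation p of 0.20, 1, 0.30 and 0.20. Leaving out 1 library moved these: Il12rb2 was at -0.0612 and Il12rb1 at 0.0422 without OA replicate 3, and Il18rap was at 0.0661 without OA replicate 2. Il12rb1 was at 0.121 when OA replicate 1 was left out and at 0.0506 when control replicate 1 was. That of Il18r1 lay between -0.0221 without control replicate 3 and 0.0352 without OA replicate 3. No such p can pass 0.05 at this size, so these values neither show a difference nor that the ratios were alike.

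Whether the members differed from each other in response was examined in all 10 pairs, as the difference between their log2(TPM + 1) differences. Ifng was lower than each receptor gene by this measure, by -0.27 against Il12rb2, -0.38 against Il18r1, -0.45 against Il12rb1 and -0.48 against Il18rap. In all 4 pairs every OA library lay below every control library (exact two-sided permutation p = 0.10 each, the smallest possible, and 0.143 adjusted over 10 pairs). Listed genes had been selected on the same group difference, and 93.6% of them did not overlap singly. How often pairs of listed genes outside the members separate in this way was not tested. The separation is therefore not shown to be particular to Ifng. Ifng stood at 2.78, 2.50 and 3.03 times the summed TPM of the 4 receptor genes in control and at 2.33, 2.10 and 1.93 times in OA. Each OA ratio was below each control ratio.

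The interleukin 12 receptor chains also stood apart in these libraries, with the same limit on the exact test. Here too, gene pairs outside the members were not tested for such separation. Il12rb2 was 0.962, 0.932 and 0.985 of Il12rb1 in the control libraries and 0.914, 0.872 and 0.748 in the OA libraries, with no overlap. The ratio was 0.959 ± 0.0266 in control and 0.845 ± 0.0863 in OA, and the difference between the chains in response was 0.19 on the log2 scale (exact permutation p = 0.10, 0.143 adjusted over 10 pairs). It was 0.10 without OA replicate 3, which had the lowest ratio. Il18r1 was 0.836 ± 0.0239 of Il18rap in control and 0.781 ± 0.0433 in OA, and here the groups overlapped (exact permutation p = 0.20, 0.25 adjusted over 10 pairs). Il12rb2 was lower than Il18r1 by -0.11 and than Il18rap by -0.21 in response, without overlap (p = 0.10 each in the exact test, 0.143 adjusted). The difference of Il12rb2 from Il18r1 was -0.0657 without control replicate 3. Il12rb1 overlapped with Il18r1 (0.07) and with Il18rap (-0.02), with an exact permutation p of 0.60 in both. These small differences moved with single libraries: that from Il18r1 was 0.00486 without OA replicate 3 and 0.131 without OA replicate 1, and that from Il18rap lay between -0.0651 and 0.00638, its ends reached without OA replicate 3 and OA replicate 2.

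**Figure D4:**
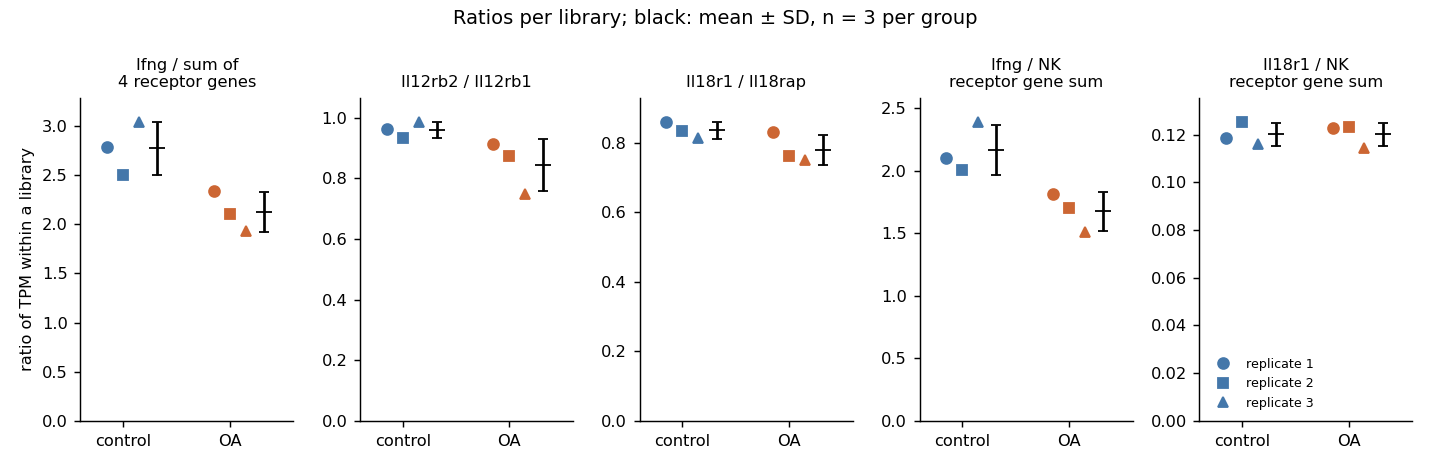
Ratios of TPM within each library (vertical axes, from 0) for Ifng over the 4 receptor genes, Il12rb2 over Il12rb1, Il18r1 over Il18rap, and Ifng and Il18r1 over the sum of 5 NK receptor genes; symbols mark the replicate and black bars the mean ± SD of 3 libraries. The groups are apart in both Ifng ratios and in Il12rb2 over Il12rb1, and overlap in both Il18r1 ratios.

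The genes whose pattern over the 6 libraries was most like that of each member were found by the root mean square difference of log2(TPM + 1), each gene centred on its own mean, among 459 named genes at 10 TPM or more. For Ifng they were the granzyme genes Gzmc (0.0504) and Gzma (0.0830) and the nitric oxide synthase gene Nos2 (0.0662), against a median of 0.371 over the genes compared. For Il12rb2 they were the lectin-like receptor gene Klrb1f (0.0336), the kinase gene Pim2 (0.0412) and the granzyme gene Gzmb (0.0520), and for Il12rb1 the ribonucleotide reductase gene Rrm2 (0.0191), Gem (0.0243) and Arid5a (0.0317). Il18r1 was nearest to the NKG2D gene Klrk1 (0.0232), Clnk (0.0298) and Sulf2 (0.0309), and Il18rap to Tmem154 (0.0148), Icos (0.0361) and the interleukin 2 receptor chain gene Il2rb (0.0387). Among the members themselves Il12rb1 and Il18rap were the closest pair (0.0456), and Ifng was closest to Il12rb2 (0.152). All genes compared share these 6 libraries and were selected on the same group difference, so likeness largely reflects a shared size of difference.

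Other genes of the pathway were read from lists fixed together with the members, when earlier results of these data were known. The counts from these lists are therefore not independent support. Of 33 genes of interleukin 12 and interleukin 18 signal transduction 5 were listed, and in limma 3 fell, 1 rose and 1 did not pass, beside 40.1% of all listed genes called lower and 36.0% called higher. With libraries scaled to equal medians 1 fell and 1 rose. Gadd45g, which promotes p38 signalling for Ifng transcription, fell from 108 ± 6.45 to 83.1 ± 8.31 TPM, and the feedback inhibitor genes Socs1 and Cish fell from 385 ± 10.9 to 322 ± 21.6 TPM and from 174 ± 6.86 to 152 ± 5.97 TPM. Nfkbiz, which encodes a nuclear partner of NF-kB, rose from 112 ± 4.79 to 133 ± 1.80 TPM. Limma called 0 of the 5 without control replicate 1 (2 lower and 1 higher at an unadjusted p under 0.05) or OA replicate 2 (3 and 1), where it called 0 listed genes. It called only Nfkbiz without control replicate 2 (13 listed genes lower and 87 higher) or control replicate 3 (30 and 119). It called 2 lower and 1 higher without OA replicate 1 (187 and 177 listed genes) and without OA replicate 3 (138 and 174). Stat4, Jak2, Tyk2 and Myd88 were not listed. None of 10 other receptor genes of the same families was listed, the interleukin 1 receptor genes beside Il18r1 among them. A gene outside the table was not analysed here.

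Of 13 ligand and decoy genes of these families 4 were listed, and all 4 rose in limma, where 36.0% of all listed genes were called higher. Il12a, which encodes the p35 chain of interleukin 12, rose from 350 ± 25.3 to 411 ± 7.42 TPM, opposite in direction to both receptor chains. Il1a, Il1b and Il1rn, genes of the interleukin 1 family that myeloid cells express strongly, rose from 1266 ± 70.8 to 1645 ± 44.7, from 3246 ± 137 to 3849.9 ± 111 and from 374 ± 41.2 to 516 ± 31.8 TPM. Without OA replicate 2, and without control replicate 1, limma called 0 of the 4 (3 and 4 at an unadjusted p under 0.05), and without control replicate 2 it called 2. Of the 7 listed monocyte, macrophage and dendritic cell markers 6 were called higher and Ly6c2 lower in the same libraries, and their part in these rises was not tested.

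Of 22 transcription factor genes that bind or regulate Ifng, 6 were listed: limma called 4 lower and 1 higher, beside 40.1% and 36.0% of all listed genes, and 1 did not pass. With libraries scaled to equal medians it called 0 lower (2 at an unadjusted p under 0.05) and 1 higher, beside 82 and 162 of all listed genes. Eomes, a T-box factor that is also on the NK cell marker list, fell from 45.6 ± 4.77 to 34.9 ± 3.58 TPM. Irf1 and Ikzf3 fell to 0.818 and 0.871 of the control level. Fos, a subunit of AP-1, rose from 62.5 ± 3.13 to 90.4 ± 12.6 TPM. In limma 0 of the 6 were called without control replicate 1, control replicate 2, control replicate 3 or OA replicate 2 (2 lower and 1 higher at an unadjusted p under 0.05 in each). In that order, these fits called 0, 13, 30 and 0 listed genes lower and 0, 87, 119 and 0 higher. Without OA replicate 3 limma called 1 lower and 1 higher, beside 138 and 174 of all listed genes.

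Downstream of interferon gamma, 15 of 29 receptor and response genes were listed and all 15 fell in limma, where 40.1% of all listed genes were called lower. Their median log2 difference was -0.37, against -0.29 over the 272 listed genes lower in OA. Over all listed genes, lower and higher together, it was 0.14. With libraries scaled to equal medians limma called 3 of the 15 lower (14 at an unadjusted p under 0.05), where it called 14.7% of all listed genes lower. Cxcl9, a chemokine gene induced by interferon gamma, went from 20.5 ± 6.24 to 8.81 ± 2.99 TPM and Nos2 from 113 ± 23.6 to 61.1 ± 13.4 TPM. The receptor genes Ifngr1 and Ifngr2 were not listed. The number that fell was 12 without OA replicate 1 (33.5% of all listed genes called lower) and 4 without OA replicate 3 (24.7%). It was 2 without control replicate 3 (5.37%) and 14 without replicate 3 of both groups (34.2%). It was 0 in limma without control replicate 1 (15 unadjusted), control replicate 2 (14) or OA replicate 2 (9). Those 3 fits called 0%, 2.33% and 0% of all listed genes lower. Irf1 is also counted with the transcription factor genes and Socs1 with the signal transduction genes, so the counts of these lists share genes.

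Of 13 other cytokine genes of NK cells 10 were listed, of which 6 fell and 4 rose in limma (40.1% and 36.0% of all listed genes), so that the fall of Ifng was not shared by all of them. Lta (lymphotoxin alpha) and Xcl1, a chemokine of NK cells, went with Ifng at log2 differences of -0.66 and -0.53. Ccl3 and Ccl4, chemokine genes that myeloid cells also express, rose by 0.52 and 0.55 on the log2 scale. The calls were 2 lower and 3 higher when control replicate 2 was left out (13 and 87 of all listed genes). They were 2 lower and 2 higher when control replicate 3 was left out (30 and 119). Limma called 0 without control replicate 1 or OA replicate 2 (6 lower and 3 higher at an unadjusted p under 0.05 in each), where it called 0 listed genes.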

How the data were processed

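Bulk RNA of splenic NK cells was measured in 3 control and 3 OA libraries. TRIzol and column extraction and an MGI library kit were used, per the labels' protocols. The submitters' processing notes name Bowtie2, RSEM 1.3.1, DESeq2 1.4.5 and the build mm10 but give them no role; annotation and filters are not given in the sources used here. Per the file headers, the authors deposited TPM for each library, a mean TPM per group, their log2 fold change (OA over control), a P value and a Q value. Listed genes summed to between 121857 and 126392 TPM (12.2% to 12.6% of the scale). TPM keeps no read numbers, so depth and counting error are unknown.

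Columns were matched to samples by title and grouped by the labelled treatment. limma 3.58.1 (R 4.3.3) was fitted on log2(TPM + 1) over all 559 genes, without a further filter and without covariates. The genes had already been selected by the authors' test on the same libraries, and the adjustment covers only them. Tests were two-sided, with p adjusted by Benjamini-Hochberg and a threshold of 0.05, and limma was tested on simulated data. This scale understates the change of low genes. Pairs of members were compared by exact permutation. The named genes were the members, up to 4 genes of each pathway list by smallest adjusted p, and the 3 genes most like each member; Klrk1, Klrd1, Klre1, Klrc1 and Ncr1 as a reference and the neighbours named were chosen with values in view. The members and lists were chosen with earlier results of these data known. Alternatives were other pseudocounts, a level filter, a stricter threshold, a fold minimum, equal medians, another limma prior, each library left out and a block by replicate number. Permutation tests ran in scipy 1.17.1, tables in pandas 2.3.3 and numpy 2.4.6, and plots in matplotlib 3.10.9, under Python 3.11.15. RefSeq matched 556 of the 559 genes by identifier.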

Additional observations from a re-analysis of the deposited data

How the results depend on the processing

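In limma the 5 members were called lower under pseudocounts of 0.1 and 0.5, without genes under a mean of 1 TPM, with an intensity trend and robust prior, without the heart muscle list and without replicate 3 of both groups. With libraries scaled to equal medians 3 passed, and Il18r1 (-0.43, adjusted p = 0.0558) and Il18rap (-0.33, adjusted p = 0.0711) did not, with 82 listed genes lower and 162 higher in place of 224 and 201; the median of all listed genes moved by -0.0093. At an adjusted p under 0.01 limma called 0 members, and among all listed genes it called only 1 lower and 0 higher. The log2 differences of the members were -0.80 for Ifng, -0.34 for Il12rb1, -0.53 for Il12rb2, -0.42 for Il18r1 and -0.32 for Il18rap. All 5 members had an unadjusted limma p under 0.05. With a log2 minimum of 0.5, 2 members, 34 lower and 66 higher genes were left.

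Leaving out each library in turn, the log2 difference ranged from -0.93 to -0.63 for Ifng, -0.39 to -0.28 for Il12rb1, -0.62 to -0.39 for Il12rb2, -0.51 to -0.29 for Il18r1 and -0.38 to -0.22 for Il18rap. Between 0 and 5 members, 0 and 187 listed genes lower and 0 and 177 higher were called. The difference between Il12rb1 and Il18rap in response ranged from -0.0651 to 0.00638, and was 0.00638 without OA replicate 2. That of Il18r1 from the NK receptor sum ranged from -0.0221 to 0.0352, with -0.00697 without control replicate 1, -0.0221 without control replicate 3, and -0.0148 and -0.0171 without OA replicates 1 and 2.

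With the replicate number as a block, limma called 0 members and 0 listed genes lower or higher (3 members, 89 lower and 149 higher genes at an unadjusted p under 0.05). The log2 differences were as without the block (-0.80, -0.34, -0.53, -0.42 and -0.32 for Ifng, Il12rb1, Il12rb2, Il18r1 and Il18rap), with adjusted p of 0.115, 0.116, 0.117, 0.116 and 0.129. The deviations from the group means correlated at 0.33, -0.11 and -0.08 across listed genes between same-numbered libraries. Between libraries of unlike number the correlations ran from -0.40 to 0.35. Deviations from the mean of 3 libraries are tied to each other, so these values cannot decide whether the numbers pair the samples. The fit without a block was kept as planned. The depth behind these TPM values is unknown, which limits what can be said of small differences.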
